A study of Mus musculus with 6 samples.

Results

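The genes described here encode voltage-gated calcium channels in the labelled hippocampus of male mice given dihydrotestosterone (DHT), a non-aromatisable androgen, or its vehicle. They are 10 genes: 8 that encode the pore-forming alpha-1 subunit (Cacna1a, Cacna1b, Cacna1c, Cacna1d, Cacna1e, Cacna1g, Cacna1h and Cacna1i) and 2 that encode an alpha-2-delta subunit (Cacna2d1 and Cacna2d3). They were picked by name. Their 551 transcript events were taken by gene identifier and their 65 circular RNAs by host symbol, out of 32348 gene identifiers, 315379 events and 11895 circular RNAs in all. All 10 were among the 11368 genes tested.

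There were 3 DHT libraries and 3 oil libraries, made from total RNA of C57BL/6 males aged 14 months. The DHT mice were injected under the skin with DHT each morning for 14 days, and the oil mice with corn oil at an equal dose. No other treatment, genotype or time point enters the comparison, and the dose is not stated in the labels. The sample descriptions call the DHT libraries a testosterone group. The labels do not say whether a library is 1 animal, so every p-value below measures the spread between these libraries, and that spread may be technical in part.

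A voltage-gated calcium channel opens when the membrane is depolarised and lets calcium into the cell. The alpha-1 subunit forms the pore and sets the channel's class, while alpha-2-delta and beta subunits bring it to the membrane and tune its gating. In hippocampal neurons the P/Q and N classes (Cacna1a, Cacna1b) trigger transmitter release, the L class (Cacna1c, Cacna1d) couples activity to gene expression, and the R class (Cacna1e) and the T class (Cacna1g, Cacna1h, Cacna1i) act in dendrites, presynaptic terminals and burst firing.

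The libraries held 43512 to 55325 back-splice junction reads, out of 143 to 177 M (mega) mapped reads. In the labelled tissue, 3 of 11 hippocampal markers (Neurod2, Dsp, Lct) were listed at 0 in all 6 libraries, and the list summed to 27.0, 42.6 and 28.8 FPKM with DHT, against 21.8, 38.1 and 37.8 FPKM with oil. A mean above 5 FPKM was found for 3 of 11 hippocampal and 8 of 9 striatal markers, while the striatal marker Drd1 was listed at 0 throughout. The striatal sum was 185, 349 and 292 FPKM with DHT, against 273, 297 and 266 FPKM with oil. Both sums overlapped between the groups, as did those of interneuron, pan-neuronal, oligodendrocyte, astrocyte, microglial and vessel markers, and their part in the results below was not tested. An exact 0 can be a failed estimate in these files, since Rbfox3 and Tubb3, used by most neurons, were also listed at 0. In bulk tissue, fewer cells of a type and less RNA per cell cannot be told apart.

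Levels are given in FPKM (fragments per kilobase and per M mapped fragments, so already per length). The value of a gene in a library is the larger of its summed first-exon and summed last-exon events. Over the 6 libraries the alpha-2-delta gene Cacna2d1 stood at 23.3 ± 1.93 FPKM (SD, n = 6) and the R-class pore gene Cacna1e at 21.4 ± 2.49 FPKM. Their ranges overlapped, and the lowest Cacna1e library (17.2 FPKM) was above the highest library of the third gene in order, Cacna2d3 (12.9 FPKM). Below this gap the levels ran on without a break.

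Cacna2d3, the other alpha-2-delta gene, had 9.93 ± 2.18 FPKM, and the L-class gene Cacna1c had 9.71 ± 0.73 FPKM (SD, n = 6 here and next). The P/Q-class gene Cacna1a had 8.55 ± 3.91 FPKM and the N-class gene Cacna1b 7.67 ± 2.87 FPKM. The T-class genes Cacna1i and Cacna1h had 7.51 ± 1.07 and 7.33 ± 2.75 FPKM, the L-class gene Cacna1d 6.96 ± 1.5 FPKM and the T-class gene Cacna1g 5.37 ± 0.93 FPKM. Each of these genes overlapped with the next in order, so their order is not fixed by 6 libraries. All 10 lay in the upper part of the tested genes, from the 62.4th percentile (Cacna1g) to the 93.8th (Cacna2d1).

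**Figure D1:**
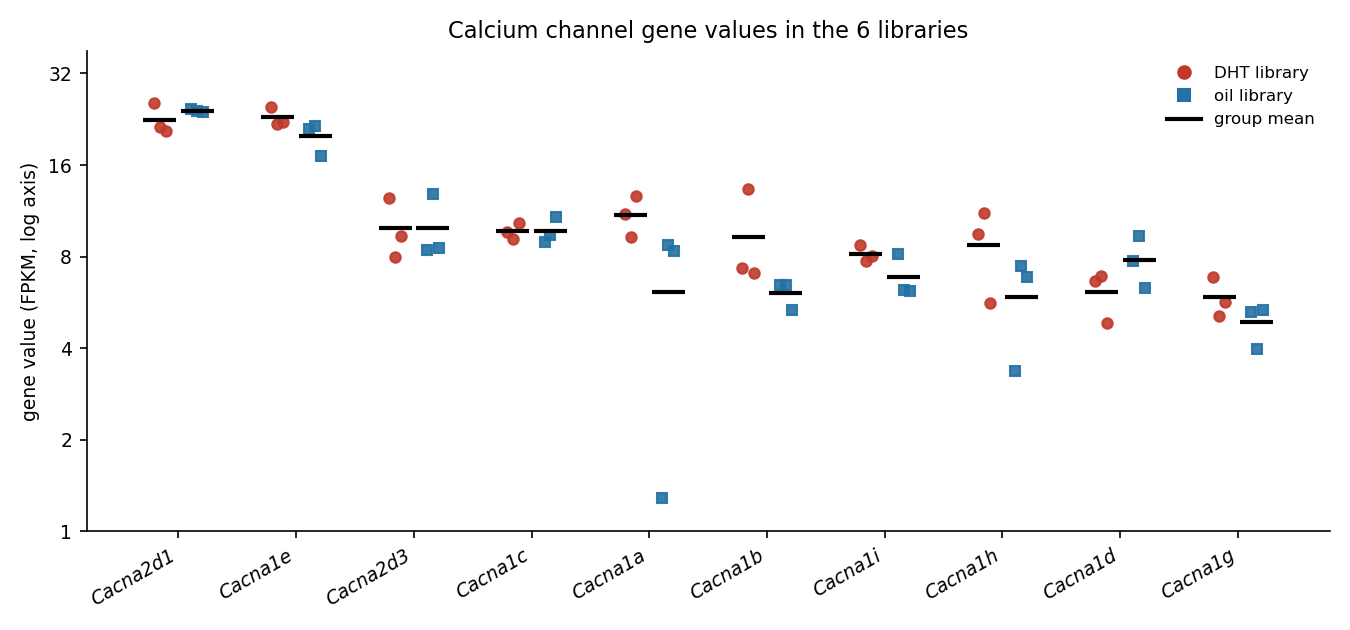
Gene values of the 10 calcium channel genes in FPKM on a log axis, ordered by their mean over the 6 libraries, with 1 point per library and a bar at the group mean. Cacna2d1 and Cacna1e sit above the other 8 genes, and a single oil library puts Cacna1a at 1.28 FPKM.

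Most of these genes were read from 1 main first exon. That of Cacna1e (chromosome 1, 154725651 to 154726356, minus strand) held 96.5% of the first-exon FPKM of its gene, that of Cacna2d1 97.8%, that of Cacna2d3 98.2% and that of Cacna1g 99.1%. Cacna1a was the most divided, with first exons at 84338639 to 84339061 and 84415364 to 84415943 on chromosome 8 that held 36.8% and 52.2%. A second first exon also held 25.9% in Cacna1d (beside 64.9%), 13.8% in Cacna1b (beside 80.8%) and 13.6% in Cacna1h (beside 78.8%). The last-exon side was less even: Cacna1e ended in an exon of 8205 bases at 17.8 FPKM and Cacna1c in one of 8231 bases at 6.99 FPKM, while each last exon of Cacna1a, Cacna1b, Cacna1d, Cacna2d1 and Cacna2d3 had a mean of at most 0.602 FPKM. The values of these genes rest on first exons. A last exon of Cacna1a at 1.99 FPKM was listed in the third oil library alone.

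The L-class genes Cacna1c and Cacna1d each have more than 1 annotated start, which allows the used start to be set beside unused ones. For Cacna1c the start at 119108495 on chromosome 6 (minus strand) had a first exon at 6.71, 7.95 and 10.3 FPKM with DHT, against 8.44, 9.33 and 10.2 FPKM with oil. The first exons at its other starts, 119196409 and 118757974, were listed at 0 in all 6 libraries. For Cacna1d the start at 30353486 on chromosome 14 (minus strand) had 4.48, 6.32 and 3.67 FPKM with DHT, against 3.62, 5.91 and 3.11 FPKM with oil. The start at 30491156 had a mean of 3.32e-05 FPKM over the 6 libraries. Among these annotated starts every library read the same start of each gene, and the groups overlapped at it. Some libraries also held first exons inside the genes, away from these starts. That of Cacna1c (118780185 to 118780324) had 2.92, 0.90 and 0.011 FPKM with DHT, against 0.43, 0.001 and 0.0015 FPKM with oil. That of Cacna1d is described below.

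The 250 bases before these starts are shown because the used and the unused ones differ in CpG, the dinucleotide that marks the broadly active class of mammalian promoters. They are from RefSeq on GRCm38.p6, 5′ to 3′ along the gene, with every CpG in capitals.
Cacna1c used start, chr6:119108496-119108745, minus strand: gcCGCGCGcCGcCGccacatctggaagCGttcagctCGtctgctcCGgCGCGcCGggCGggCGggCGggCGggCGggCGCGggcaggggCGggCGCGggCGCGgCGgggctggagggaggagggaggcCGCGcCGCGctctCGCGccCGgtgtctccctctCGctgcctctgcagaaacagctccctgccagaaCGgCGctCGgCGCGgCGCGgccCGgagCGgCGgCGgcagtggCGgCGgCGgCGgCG
Cacna1c unused start, chr6:118757975-118758224, minus strand: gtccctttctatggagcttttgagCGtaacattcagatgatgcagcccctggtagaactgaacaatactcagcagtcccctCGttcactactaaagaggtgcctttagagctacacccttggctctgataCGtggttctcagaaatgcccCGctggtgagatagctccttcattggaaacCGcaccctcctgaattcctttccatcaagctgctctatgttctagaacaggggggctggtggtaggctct
Cacna1d used start, chr14:30353487-30353736, minus strand: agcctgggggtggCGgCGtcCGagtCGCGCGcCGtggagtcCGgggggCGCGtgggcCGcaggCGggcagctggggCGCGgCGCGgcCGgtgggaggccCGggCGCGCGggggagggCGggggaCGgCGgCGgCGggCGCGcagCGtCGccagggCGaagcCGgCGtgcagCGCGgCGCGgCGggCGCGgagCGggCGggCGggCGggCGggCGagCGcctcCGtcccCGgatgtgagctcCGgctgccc
Cacna1d unused start, chr14:30491157-30491406, minus strand: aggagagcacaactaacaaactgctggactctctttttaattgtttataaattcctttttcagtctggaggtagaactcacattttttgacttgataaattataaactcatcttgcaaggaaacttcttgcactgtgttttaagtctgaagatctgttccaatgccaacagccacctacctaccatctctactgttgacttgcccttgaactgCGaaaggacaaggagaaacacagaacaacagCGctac

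The used Cacna1c start had 48 CpG and the used Cacna1d start 50, both at the 99.9th percentile of 32851 promoters in the same table, whose median was 6. The unused Cacna1c starts had 5 and 2 CpG and the unused Cacna1d start had 2. This is the common pattern in these libraries: of 387 genes with a used and an unused annotated start, the used one had more CpG in 323 (83.5%), fewer in 59 and as many in 5. A start counted as used at 1 FPKM or more, and as unused at no more than 10% of that. Assembled first exons can reach past the annotated start, by 481 bases at the Cacna1c start with 2 CpG and 299 at the unused Cacna1d start. Both of these windows lie inside the exon whose FPKM is given, and not before it. The exons at the used starts reach 78 (Cacna1c) and 41 bases (Cacna1d) into their windows. The unused Cacna1c starts rest on values of exactly 0, which can be failed estimates.

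A set of 4 short motifs was searched on both strands of the 250 bases before the 10 annotated starts that 7 of the genes have in the table. The letters AGAACA, a hexamer of the androgen and glucocorticoid response elements, occurred before 2 of 10 starts, against 16.1% of all promoters. Both were unused starts: that of Cacna1c printed above, with 2 matches, and that of Cacna1d, with 1 match. GGGCGG, the GC box, occurred before 5 of 10 (32.7% of all), TGACG, the core of the cAMP response element, before 4 of 10 (17.8%), and TATAAA before 1 of 10 (12.4%), the unused Cacna1d start. A match describes letters only, and the window of the unused Cacna1d start lies inside its assembled first exon.

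**Figure D2:**
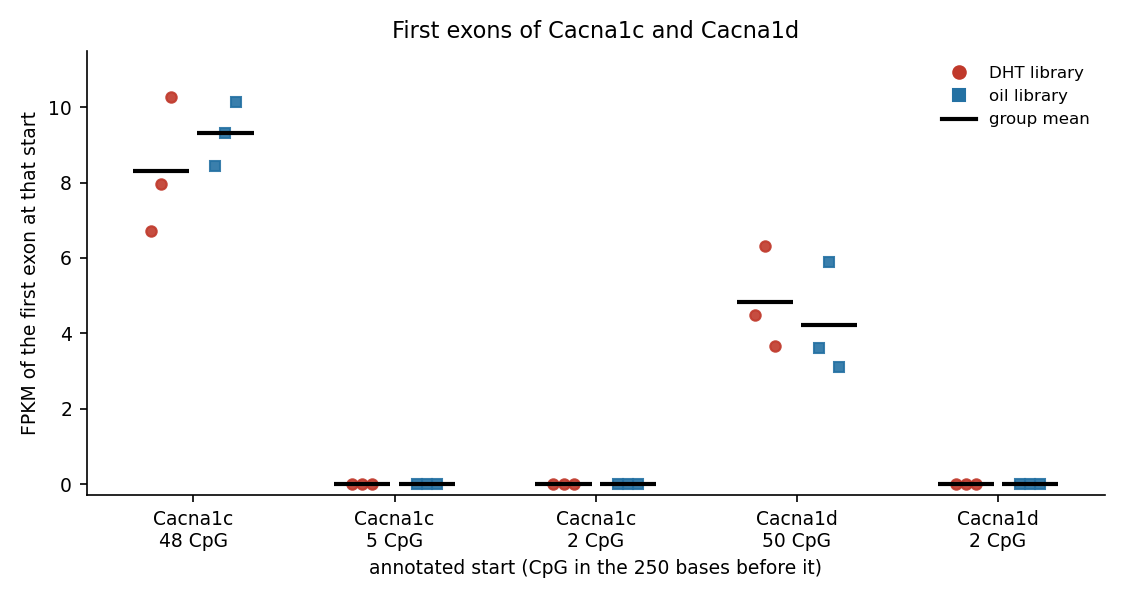
FPKM of the first exon at each annotated start of Cacna1c and Cacna1d in each library, with the number of CpG in the 250 bases before the start under each; bars are group means. The starts with 48 and 50 CpG carry nearly all of the signal at these starts in both groups, and those with 5 or 2 CpG lie at 0.

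The main comparison asked whether 14 days of DHT went with a different level of these genes. None of the 10 passed an adjusted p of 0.05 over all tested genes (limma on log2(FPKM + 0.5)), and 0 had an unadjusted p under 0.05. In the same fit 0.0176% of all genes passed, and 7.34% had an unadjusted p under 0.05. The fold changes of 8 genes were above 0 and of 2 below, with a median of 0.23 on the log2 scale, against 63.6% above 0 and a library median shift of 0.06 over all genes. After centring each library on its median, 6 were above 0 and 4 below, against 51.4% of all genes above 0. Cacna1c and Cacna2d3 were the 2 whose sign turned.

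In 3 of 10 genes (Cacna1a, Cacna1b and Cacna1e) every DHT library was above every oil library, and in none was every DHT library below. Over all genes the groups did not overlap in 15.1%, with 1362 genes higher with DHT and 358 lower. After centring it held for 2 of them, Cacna1a and Cacna1b, again with none of the 10 on the lower side, against 13.0% of all genes in either direction. Each of the 3 is given library by library.

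Cacna1a, the P/Q-class pore of fast transmitter release, had 11.1, 9.31 and 12.6 FPKM with DHT, against 1.28, 8.72 and 8.32 FPKM with oil. The groups did not overlap, but most of the gap came from the first oil library, which lay far below the other 5. The log2 fold change was 1.12 (SE 0.61, limma, unadjusted p = 0.110, adjusted p = 0.683). Without that library it was 0.34.

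The low value of that oil library depends on which events are summed. In it a splicing event near the 3′ end of Cacna1a was listed at 8.59 FPKM, above the summed first exons of the gene, so the gene value leaves transcripts out there. A single event was also above the gene value in the second DHT library (13.0 against 9.31 FPKM) and the third oil library (8.84 against 8.32 FPKM). With the fullest single event of the gene in each library, Cacna1a had 11.1, 13.0 and 10.4 FPKM with DHT, against 8.59, 8.43 and 8.84 FPKM with oil, where the groups did not overlap and the oil libraries lay close together. The fullest event was not the same form in each library. It held the upstream exclusive exon described below in the second DHT library, and the downstream one in the first oil library. Such values mix the choice of exon with the level of the gene. In the third oil library a separate assembled locus of the gene held a further 1.99 FPKM. With the fullest events of all loci of the gene summed, that library stood at 10.8 FPKM, above the third DHT library. On this summed scale the groups overlapped, and the log2 fold change was 0.30 (limma, adjusted p = 0.675).

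Cacna1b, the N-class pore, had 7.33, 13.3 and 7.09 FPKM with DHT, against 6.46, 6.43 and 5.34 FPKM with oil. The second DHT library stood above the other 5. Of its value, 5.70 FPKM came from a first exon of 67 bases inside the gene (chromosome 2, 24618255 to 24618321), which held 0.0981 to 0.202 FPKM in the other 5 libraries. The first exon at the annotated start (24762764 to 24763152) had 6.60, 7.62 and 6.95 FPKM with DHT, against 5.29, 5.55 and 5.13 FPKM with oil. At that exon the groups did not overlap and no library stood apart. The log2 fold change of the gene value was 0.52 (SE 0.24, limma, adjusted p = 0.660). It was 0.23 without the second DHT library, and -0.18 with the fullest event of the locus.

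Cacna1e, the R-class pore, had 24.9, 21.8 and 22.1 FPKM with DHT, against 21.1, 21.5 and 17.2 FPKM with oil. The groups were separated by a narrow margin, and the third oil library was the lowest. The log2 fold change was 0.20 (SE 0.12, limma, adjusted p = 0.705).

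Of the L-class genes, Cacna1c averaged 9.70 ± 0.61 FPKM with DHT, against 9.71 ± 0.99 FPKM with oil (SD, n = 3 each), for a log2 fold change of 0.00 (SE 0.11). Its last exon alone (chromosome 6, 118585964 to 118594194) had 8.17, 6.97 and 8.17 FPKM with DHT, against 6.51, 5.99 and 6.11 FPKM with oil. The groups did not overlap at that exon, whereas the gene values overlapped. On last-exon sums the log2 fold change was 0.27 (limma, unadjusted p = 0.030, adjusted p = 0.637). On those sums 2 of 6 tested calcium channel genes had an unadjusted p under 0.05, against 627 of 8154 over all genes. Cacna1d averaged 6.13 ± 1.13 FPKM with DHT, against 7.79 ± 1.51 FPKM with oil, and its log2 fold change of -0.32 (SE 0.19, limma, adjusted p = 0.698) was the lowest of the 10.

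The lower side of Cacna1d lay in a short internal first exon and not at its annotated start. The internal exon (chromosome 14, 30099042 to 30099137, 96 bases) had 1.99, 0.03 and 1.09 FPKM with DHT, against 3.24, 2.18 and 2.28 FPKM with oil. All 3 DHT libraries were below all 3 oil libraries there, whereas the groups overlapped at the start with 50 CpG. This exon, the last exon of Cacna1c and the short last exon of Cacna2d1 described below were singled out after their values were seen. Other single exons also separated the groups, higher with DHT (as at 80393671 in Cacna1i) or lower (as at 16361395 in Cacna2d1). The share of such exons over all genes was not worked out.

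The T-class genes, which open near rest and drive burst firing, all had positive fold changes that did not pass. Cacna1h had 9.51, 11.1 and 5.63 FPKM with DHT, against 3.37, 7.46 and 6.88 FPKM with oil (log2 fold change 0.55, SE 0.34, limma, adjusted p = 0.714). Without the first oil library it was 0.22. The gene varied widely within both groups, and its lowest value, like that of Cacna1a, was in the first oil library. Cacna1i averaged 8.16 ± 0.52 FPKM with DHT, against 6.86 ± 1.14 FPKM with oil (log2 fold change 0.25, SE 0.14). Cacna1g averaged 5.87 ± 0.89 FPKM with DHT, against 4.86 ± 0.77 FPKM with oil (0.25, SE 0.16).

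The alpha-2-delta genes, whose products carry channels to the surface and bind gabapentin in the case of Cacna2d1, had fold changes at or just below 0 that did not pass. Cacna2d1 averaged 22.5 ± 2.69 FPKM with DHT, against 24.1 ± 0.35 FPKM with oil, a log2 fold change of -0.10 (SE 0.11). Cacna2d3 averaged 9.93 ± 2.32 FPKM with DHT, against 9.93 ± 2.55 FPKM with oil, a log2 fold change of 0.00 (SE 0.22). A short last exon inside Cacna2d1 (chromosome 5, 16088148 to 16089022) had 1.02, 1.36 and 0.73 FPKM with DHT, against 0.50, 0 and 0 FPKM with oil. It is a small part of a gene at over 20 FPKM, and on last-exon sums the log2 fold change of Cacna2d1 was 1.14 (limma, unadjusted p = 0.010, adjusted p = 0.573). Summed over the 10 genes, the libraries held 122.8, 113.7 and 106.3 FPKM with DHT and 95.2, 109.9 and 98.8 FPKM with oil, and the groups overlapped.

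Splicing was read from pairs of events that include or skip the same exons or intron. The 10 genes had 192 such pairs, of which 99 had a mean sum of at least 1 FPKM and were tested. Of the 57 tested cassette pairs, 26 included the exon in 90% or more of the FPKM, 15 in 10% or less and 16 in between. Of the 42 tested intron pairs, 28 kept the intron in 10% or less and 0 in 90% or more.

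None of the 99 pairs passed (limma on the log2 ratio), 1 had an unadjusted p under 0.05, and the ratio was higher with DHT in 39 and lower in 60. Over all 30110 pairs 0.00996% passed, 4.96% had an unadjusted p under 0.05 and 48.3% were higher with DHT. Only 30 of the 99 pairs had a mean share between 10 and 90%. In the others, with 0.5 FPKM added to both forms, the ratio can follow the level of the larger form, so these directions do not measure splicing alone. The 1 pair with an unadjusted p under 0.05 was a multi-exon cassette of Cacna1a (chromosome 8, 84612285 to 84614791). Its including form had 11.0, 13.0 and 9.26 FPKM with DHT, against 1.04, 5.80 and 5.19 FPKM with oil, with its skipping form at no more than 0.0214 FPKM in any library. The cassette was included in 99.9, 99.9 and 99.8% of the pair with DHT, against 99.3, 99.9 and 99.6% with oil, and these shares overlapped. With the skipping form near 0 and 0.5 FPKM added to both forms, the log2 ratio of 1.59 (SE 0.56, limma, unadjusted p = 0.030, adjusted p = 0.907) follows the level of the including form and does not measure inclusion. Without the first oil library the log2 ratio was 0.94.

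That cassette ends in 1 of 2 mutually exclusive exons of Cacna1a, both 97 bases long, which in human and rat encode alternative forms of the EF-hand-like region behind the pore. A comparison of such exon pairs was added after the data were seen. The FPKM of the upstream exon are those of the including form above, so the 2 tests share values and are not separate results. The upstream exon (84614695 to 84614791) took 57.3, 72.4 and 64.5% of the pair with DHT, against 10.8, 44.8 and 42.0% with oil. Every DHT library was above every oil library in this share, and the first oil library was the lowest. The downstream exon (84615574 to 84615670) had 8.24, 4.95 and 5.10 FPKM with DHT, against 8.59, 7.15 and 7.16 FPKM with oil, which overlapped.

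The share of the upstream Cacna1a exon averaged 64.7 ± 7.60% with DHT, against 32.5 ± 18.9% with oil (SD, n = 3 each). The log2 ratio was 1.93 (SE 0.74, limma, unadjusted p = 0.041, adjusted p = 0.816), and without the first oil library it was 1.19. It did not pass among 419 exon pairs tested, of which 0.239% passed and 5.49% had an unadjusted p under 0.05. Groups did not overlap in 2 of the 10 tested pairs of these genes, against 7.64% of all pairs.

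**Figure D3:**
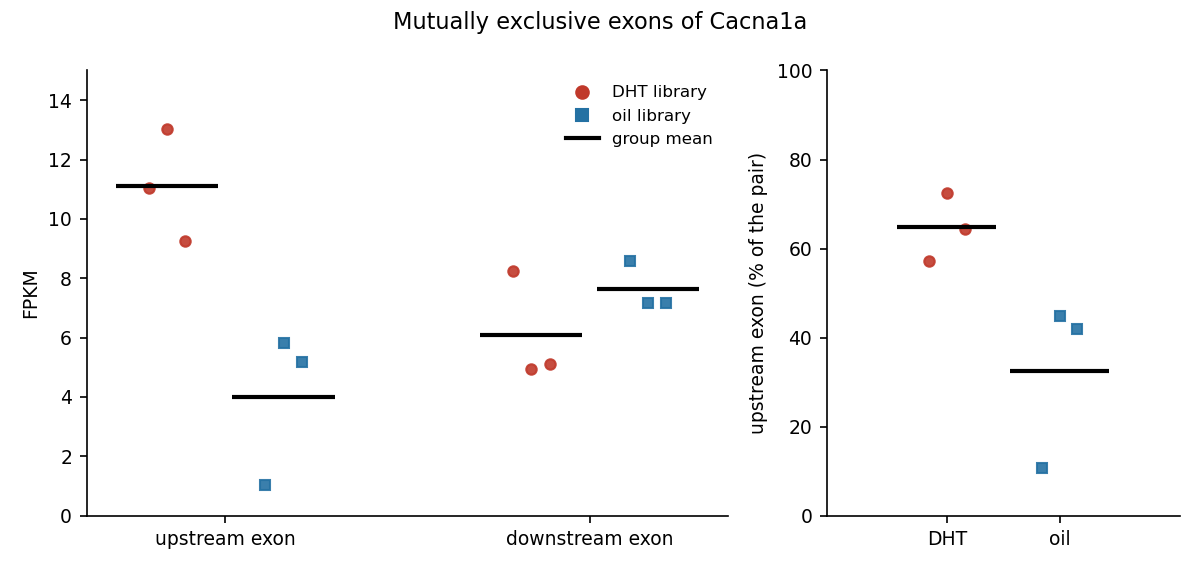
The 2 mutually exclusive exons of Cacna1a: FPKM of each exon (left) and the share of the upstream exon in the pair in percent (right), per library with group means. The upstream exon takes 57.3 to 72.4% with DHT, against 10.8 to 44.8% with oil, while the downstream exon overlaps between the groups.

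The other exclusive exons showed how far each gene is set to 1 form. In Cacna1b the 97-base upstream exon, which in rat is known from pain-sensing sensory neurons, took at most 0.639% of its pair in any library (chromosome 2, 24626823 to 24626919, against 24625238 to 24625334). In Cacna1c the upstream exon of a pair of 60 bases each (chromosome 6, 118674555 to 118674614) took 0 to 4.4%. In Cacna1d the upstream exon of a pair of 104 bases each (chromosome 14, 30171956 to 30172059), which in human encodes the last segment of the first channel repeat, took 14.4, 19.4 and 28.4% with DHT, against 16.6, 25.7 and 33.2% with oil.

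These Cacna1d shares overlapped between the groups. Another Cacna1d pair of 84 bases each (upstream exon 30089822 to 30089905) favoured its upstream exon, at 83.9, 74.8 and 81.7% with DHT, against 85.8, 80.6 and 67.4% with oil in the first of its contexts. In another context with the same 2 exons the groups did not overlap, at 83.9, 90.5 and 81.7% with DHT, against 74.6, 80.6 and 60.6% with oil (limma, adjusted p = 0.892). Of the 10 tested pairs of these genes 7 joined exons of equal length, compared with 11.2% of all pairs tested. These 7 hold 5 distinct exon pairs, since the Cacna1d pair at 30089822 was tested in several contexts.

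Circular RNAs are closed rings formed when the end of an exon is spliced back to an exon start before it, and reads across that joint are counted. The calcium channel genes hosted 65 of them, 59 exonic and 6 intronic, with 1157 junction reads, or 0.404% of all junction reads. Cacna1c had 14 circles, Cacna2d3 11, Cacna1a 10, Cacna1b and Cacna2d1 8 each, Cacna1d 7 and Cacna1e 5. Cacna1h and Cacna1i had 1 each, and none was listed for Cacna1g. A circle is listed from 2 reads in a library, so an unlisted one can hold 1 read.

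Reads followed gene level only in part. Cacna2d1 was highest and Cacna1g lowest on both. Cacna2d1 had 250 circle reads, Cacna1a 232, Cacna2d3 204, Cacna1b 171 and Cacna1c 165, whereas Cacna1e, the second most abundant gene, had 56, Cacna1d 61, Cacna1h 15 and Cacna1i 3. Per FPKM of gene value that is 27.1 reads for Cacna1a, 22.3 for Cacna1b and 20.5 for Cacna2d3, against 2.61 for Cacna1e and 0.399 for Cacna1i. Gene length was not taken into account.

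Of the 65 circles, 50 shared a start or an end with another circle of the same gene (76.9%, against 65.6% of all circles with a host). Their median genomic span was 21768 bases, from 651 to 172405, against a median of 13192 for all exonic circles. Only 5 were listed in all 6 libraries (7.7%, against 13.3% of all circles), 1 each for Cacna1a, Cacna1b, Cacna1c, Cacna2d1 and Cacna2d3, and these held 56.1% of the reads. In 1 library only, 26 were listed (40.0%, against 47.8%).

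The ends of some circles matched exon edges of the event tables. Both ends did so for 9 circles, including the most read circles of Cacna1b and Cacna1c. The Cacna1c circle (119052601 to 119057515) has the span of an event in which the 4489-base intron between its 2 edge exons is kept, at 19.0 ± 12.2% of the pair (SD, n = 6). Set against a second event without the intron, the kept form took 42.5 ± 35.5%, so its share is poorly fixed. Its circle reads cannot be told apart into forms with and without that intron.

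A circle end can also be read in sequence where an annotated start coincides with it. Both Cacna1e circles whose 5′ end is 154725920 begin at such a start, and the 30 bases before it, chr1:154725921-154725950, minus strand, GRCm38.p6, RefSeq, end in the dinucleotide of a splice acceptor, in capitals.
Cacna1e circle, bases before the 5′ end: ttgtgtgtcttctgtctgtttaaacttcAG
Of all 32851 windows 6.1% end in AG. The first-exon event of Cacna1e reaches past this point to 154726356, so the base before which these circles close lies inside that assembled first exon.

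Of the 65 circles, 11 had at least 20 reads and were tested, and none passed (edgeR quasi-likelihood test). With edgeR 0 had an unadjusted p under 0.05, and with DESeq2 0 passed and 0 had one (2.89% of all circles). Over all 2524 circles tested edgeR called 0 (0%) and 3.13% had an unadjusted p under 0.05. Of the 11, 6 had a positive and 5 a negative log2 fold change, against 50.4% positive over all circles. Adjusted p was 0.996 for each of the 11.

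The most read Cacna1a circle (chromosome 8, 84583559 to 84588859) had 36, 36 and 17 reads with DHT, against 21, 24 and 17 reads with oil (log2 fold change 0.39, SE 0.33). It overlapped between the groups, since 1 DHT library was as low as the lowest oil library. A longer Cacna1a circle (84556704 to 84612412) had 6, 6 and 5 reads with DHT, against 3, 2 and 0 reads with oil (1.61, SE 1.28). It did not overlap, also in reads per M junction reads, which held for 11.0% of all tested circles, and it was the only one of the 11 on that scale.

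The Cacna1b circle (chromosome 2, 24631899 to 24639210) had 22, 32 and 25 reads with DHT, against 18, 21 and 21 reads with oil (log2 fold change 0.28, SE 0.31). Its raw reads did not overlap, but its reads per M junction reads did. The most read Cacna1c circle had 24, 8 and 20 reads with DHT, against 15, 14 and 14 reads with oil (0.15, SE 0.42), with a wider spread in the DHT libraries. Another Cacna1c circle (118776417 to 118780324) had 3, 4 and 4 reads with DHT, against 6, 0 and 7 reads with oil (-0.35, SE 1.23), and overlapped.

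The most read Cacna2d1 circle (chromosome 5, 16299929 to 16333825) had 29, 14 and 23 reads with DHT, against 33, 30 and 19 reads with oil (log2 fold change -0.42, SE 0.33). A shorter one with the same start (16299929 to 16328044) had 6, 10 and 4 reads with DHT, against 0, 11 and 4 reads with oil (0.27, SE 0.93). Another (16264258 to 16267475) had 4, 3 and 0 reads with DHT, against 9, 5 and 3 reads with oil (-1.36, SE 1.22). All 3 overlapped between the groups.

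The most read Cacna2d3 circle (chromosome 14, 29055887 to 29062540) had 19, 23 and 16 reads with DHT, against 11, 25 and 22 reads with oil (log2 fold change -0.13, SE 0.38). Another (29097784 to 29105025) had 9, 11 and 6 reads with DHT, against 0, 7 and 3 reads with oil (1.21, SE 0.87). The Cacna1e circle (chromosome 1, 154700371 to 154725920) had 5, 0 and 9 reads with DHT, against 0, 5 and 10 reads with oil (-0.23, SE 1.23). All 3 overlapped, and each group held a library without the Cacna1e circle. Of the circles under 20 reads, that of Cacna1h (chromosome 17, 25380225 to 25381573) had 5, 3 and 5 reads with DHT, against 0, 0 and 2 reads with oil, and was singled out after its values were seen.

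**Figure D4:**
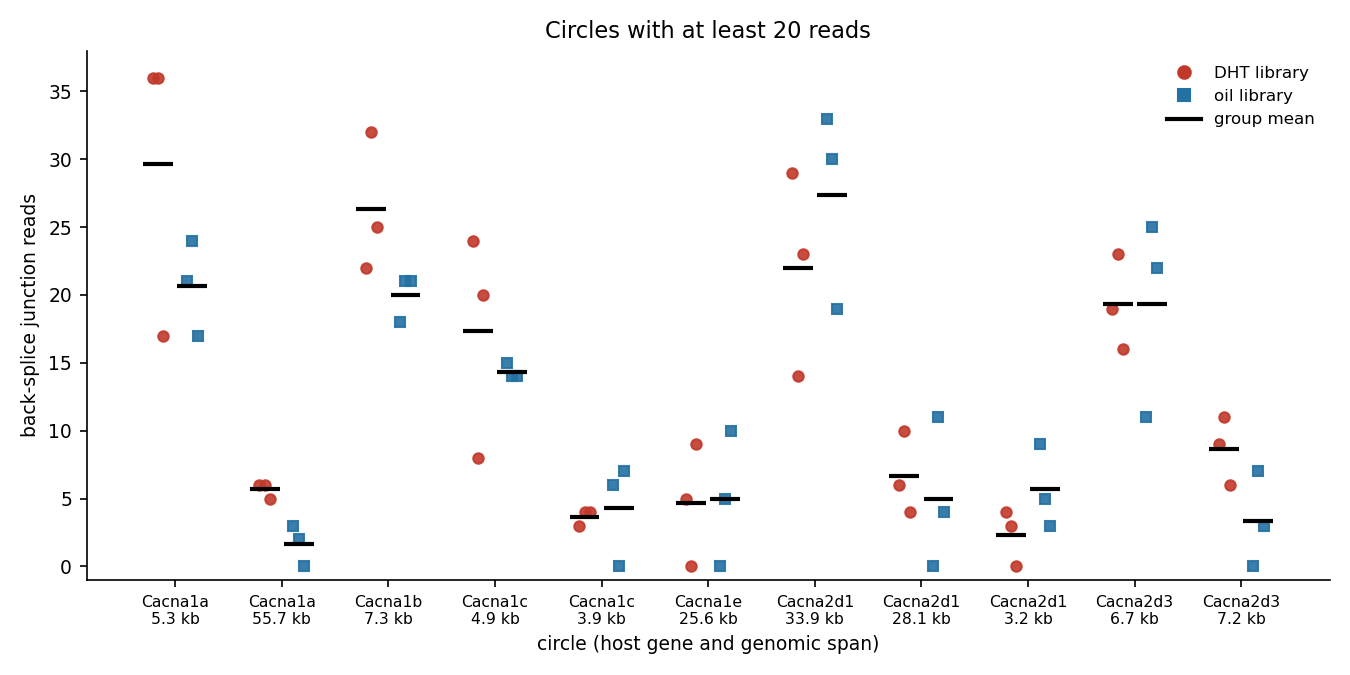
Back-splice junction reads of the 11 tested circles of the calcium channel genes in each library, labelled by host gene and genomic span in kilobases; bars are group means. The groups overlap for most circles, and in raw reads they separate for the 55.7 kb circle of Cacna1a and the 7.3 kb circle of Cacna1b.

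Summed over all circles of a gene, 7 genes had at least 20 reads. None passed with edgeR or DESeq2, and with either 1 of 7 (Cacna1a) had an unadjusted p under 0.05. Over all 1711 host genes edgeR called 0 (0%), and 4.21% had an unadjusted p under 0.05 (4.38% with DESeq2). Cacna1a circles summed to 63, 56 and 27 reads with DHT, against 34, 26 and 26 reads with oil. The first and second DHT libraries were high and the third lay within the oil range. The log2 fold change was 0.64 (SE 0.29, edgeR, unadjusted p = 0.044, adjusted p = 0.999).

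Cacna1d circles summed to 20, 12 and 10 reads with DHT, against 8, 11 and 0 reads with oil (log2 fold change 1.03, SE 0.74), and Cacna1e circles to 8, 2 and 9 reads with DHT, against 12, 5 and 20 reads with oil (-1.06, SE 0.70). Both overlapped. The sums of Cacna1b (0.35, SE 0.33), Cacna1c (0.15, SE 0.31), Cacna2d1 (-0.18, SE 0.27) and Cacna2d3 (0.28, SE 0.30) also overlapped after scaling, so none of the 7 separated the groups, against 11.0% of all hosts.

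**Figure D5:**
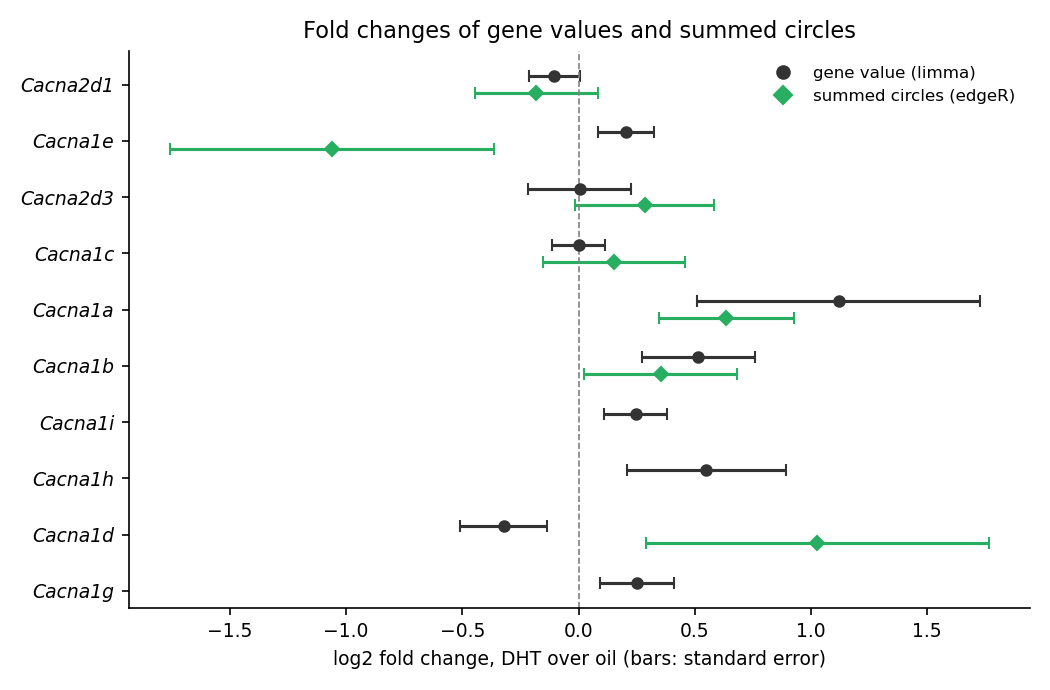
Log2 fold changes of DHT over oil with their standard errors, for the gene values of the 10 genes (limma) and for the summed circles of the 7 genes with at least 20 circle reads (edgeR). Cacna1a and Cacna1b lie above 0 on both measures, and Cacna1d and Cacna1e have opposite signs on the 2 measures, none past the adjusted threshold.

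All circles of the 10 genes together had 1387, 1354 and 1221 junction reads per G (giga) mapped reads with DHT, against 1046, 1213 and 1004 with oil. The groups did not overlap on that scale. Per M junction reads they had 4446, 4537 and 4022 with DHT, against 3443, 4083 and 3603 with oil, which overlapped. DHT libraries listed 34, 34 and 24 of the circles and oil libraries 25, 21 and 22, and the deepest library was in the DHT group.

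The lists also give linear reads at each circle, which show whether a circle moves apart from the RNA of its gene. For the 5 circles in all 6 libraries no linear count passed (edgeR, 0 at an unadjusted p under 0.05, and 0 called by DESeq2), where 0.886% of 1581 circles passed (1.45% with DESeq2) and 11.8% had an unadjusted p under 0.05. At the Cacna1a circle the libraries held 999, 898 and 586 linear reads with DHT and 831, 762 and 755 with oil, a log2 fold change of -0.01 (SE 0.09, adjusted p = 0.976). The first oil library, lowest of all in the Cacna1a gene value, was not low in these reads, at 1391 linear reads per M against 1121 to 1501 in the other 5 libraries.

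There were 3.60, 4.01 and 2.90 junction reads per 100 linear reads at the Cacna1a circle with DHT, against 2.53, 3.15 and 2.25 with oil, which overlapped. In group means the ratio was highest at the Cacna1b circle, with 4.84, 7.84 and 9.54 with DHT, against 4.80, 6.23 and 7.27 with oil. In the first DHT library the Cacna1c circle was above it, at 4.99. None of the 5 ratios passed (limma, 0 at an unadjusted p under 0.05, against 0% and 5.31% of all circles), and the log2 fold changes ran from -0.28 (Cacna2d1, SE 0.44) to 0.40 (Cacna1a, SE 0.41). The 5 circles lay between the 33.4th and the 57.0th percentile of circles listed in all 6 libraries, whose median was 5.31.

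The partners of these channels were read from 7 lists with 57 genes, of which 50 were tested. None passed in limma, and 3 had an unadjusted p under 0.05, against 7.34% of all genes (1 after centring, against 6.03%). Of the 50, 31 were above 0 and 19 below, where 63.6% of all genes were above 0 (26 and 24 after centring, against 51.4%). Before centring neither count stands above its share over all genes. All 3, Cacnb3, Slc8a2 and Rims1, were higher with DHT. The groups did not overlap in 8 of the 50 with DHT higher and in 1 with DHT lower. Over all genes they did not overlap in 15.1%, in either direction. After centring the counts were 3 and 2, against 13.0% of all genes.

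Cacnb3 encodes a beta subunit, which binds the pore of P/Q, N and L channels inside the cell. It had 31.8, 27.1 and 26.4 FPKM with DHT, against 16.6, 11.8 and 20.7 FPKM with oil. The groups were well apart (log2 fold change 0.81, SE 0.20, limma, unadjusted p = 0.006, adjusted p = 0.652), and Cacnb3 kept an unadjusted p under 0.05 after centring. Of the other beta genes, given because they share this role, Cacnb2 had a log2 fold change of -0.01 (SE 0.17), Cacnb1 averaged 13.5 ± 0.53 FPKM with DHT, against 12.8 ± 1.55 FPKM with oil, and Cacnb4 averaged 14.9 ± 0.88 FPKM with DHT, against 14.5 ± 0.20 FPKM with oil (SD, n = 3 each).

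Of the 15 genes listed with Cacnb3 (beta, gamma and further alpha subunits, and the leak channel Nalcn), 11 were tested, 8 were above 0 and 3 below, with a median log2 fold change of 0.09. Cacng2, which encodes stargazin, a partner of AMPA receptors, averaged 5.49 ± 0.35 FPKM with DHT, against 4.46 ± 0.64 FPKM with oil (0.28, SE 0.13). Cacng7 had 0.23 (SE 0.11) and Cacng3 0.16 (SE 0.10). The pore genes of muscle and retina, Cacna1s and Cacna1f, were at or near 0 in both groups.

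Among calcium extrusion genes 6 of 8 were above 0. Slc8a2, a sodium-calcium exchanger of neurons, had 25.2, 22.2 and 19.2 FPKM with DHT, against 16.7, 17.4 and 17.8 FPKM with oil, without overlap (log2 fold change 0.34, SE 0.12, limma, adjusted p = 0.656). Atp2b2, a plasma membrane calcium pump, had 0.18 (SE 0.10). Among the scaffolds that hold channels at release sites 5 of 6 tested were above 0. Rims1, which tethers P/Q and N channels, had 70.1, 48.2 and 44.4 FPKM with DHT, against 40.3, 39.3 and 36.9 FPKM with oil, without overlap (0.45, SE 0.18, limma, adjusted p = 0.658, and 0.25 without the first DHT library). Erc2 had 0.39 (SE 0.17).

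Calcium release channels split 3 above 0 and 2 below, with Ryr2 at 0.25 (SE 0.15) and Itpr2 at 0.25 (SE 0.22). Calcium-gated potassium channels split 2 and 2, and calcium-binding proteins 3 and 3, with Kcnn1 at 0.50 (SE 0.26), Kcnn2 at 0.16 (SE 0.16), the hippocampal sensor gene Hpca at 0.19 (SE 0.11) and Ncald at 0.13 (SE 0.12). Among calmodulin genes and kinases 4 were above 0 and 6 below. Camk4, a nuclear kinase downstream of L channels, had 22.4, 23.0 and 11.2 FPKM with DHT, against 26.8, 25.7 and 29.5 FPKM with oil. The DHT libraries were all lower, the third by the most (log2 fold change -0.59, SE 0.27, limma, adjusted p = 0.658). Without that library the fold change was -0.26. Camk2b, a postsynaptic kinase, had 0.41 (SE 0.20).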

How the data were processed

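Total RNA of 6 libraries was compared, 3 DHT and 3 oil, grouped by the treatment label. The 10 genes and all partner and marker lists were chosen with earlier results of these data known. The rule for the genes named was all 10 members, every circle with at least 20 reads, every splicing pair with an unadjusted p under 0.05, and of each partner list the 2 to 4 genes with the smallest p; other partner genes are named outside it.

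Back-splice and linear read counts per circular RNA were deposited by the authors, who list a circle from 2 reads. A deposited score per circle is SRPBM (junction reads per G mapped reads) which the authors rounded down (per the labels' protocols, and seen in the values). It was used only to work out mapped reads. FPKM values were deposited by the authors per first-exon, last-exon and splicing event, per the file headers. Submitters' processing notes name BWA, cutadapt, HISAT2 2.0.1 and bcl2fastq 2.17.1.14. Neither the circle caller nor the source of FPKM is stated in them. The notes name mm9, but 99.5% of 11377 circles with a host in the reference table (65 of 65 here) lie within that gene's GRCm38 bounds, so coordinates are read as GRCm38. Strand use in counting is not stated, so overlapping and antisense genes cannot be told apart. Of the gene identifiers 99.7% matched a symbol.

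Gene values averaging 0.5 FPKM or more entered limma 3.58.1 (trend, R 4.3.3) on log2(FPKM + 0.5), a scale that understates changes of low genes. Splicing pairs were tested likewise on log2 ratios, from a mean sum of 1 FPKM. Counts of circles, host sums and linear reads entered edgeR 4.0.16 (TMM, quasi-likelihood) and, as an alternative, DESeq2 1.42.0, from 20 reads for circles and hosts. Circular shares were tested with limma on log2 ratios with 0.5 added. P-values were adjusted by Benjamini-Hochberg over all features of a table, with a threshold of 0.05. Each method was tested on simulated data. The rest used matplotlib 3.10.9, numpy 2.4.6, pandas 2.3.3 and Python 3.11.15. Alternatives were the pseudocount, filters, scaling, gene value, test and each library left out.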

Additional observations from a re-analysis of the deposited data

How the results depend on the processing

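No count of calls changed under any alternative tried: 0 genes, circles, host sums, linear counts, shares and splicing pairs passed in all 91 settings of these counts. Of the single values, 678 kept their direction under an alternative and 41 reversed, none of them past the threshold. Centring turned Cacna2d3 to -0.057 and Cacna1c to -0.061 (log2 fold change). Last-exon sums turned Cacna2d1 to 1.14, the fullest event of each assembled locus, summed per gene, turned Cacna1b to -0.18 and Cacna1c to -0.081, and first-exon sums turned Kcnn1 to -0.0057; the cause was not tested.

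With each library left out in turn, Cacna2d3 ran from -0.165 to 0.20 and Cacna1c from -0.056 to 0.077, while Cacna1a ran from 0.34 to 1.53, Cacna1b from 0.23 to 0.67, Cacna1h from 0.22 to 0.82 and Camk4 from -0.76 to -0.26. With centring as well, Cacna2d3 fell below 0 without the first or the third DHT library (-0.23 and -0.019) or the first or the third oil library (-0.17 and -0.146). Cacna1c did so without any of the DHT libraries (-0.066, -0.018 and -0.098) or the first or second oil library (-0.13 and -0.070), Kcnn2 without the first DHT (-0.022) or first oil library (-0.029), and Ncald without the third oil library (-0.025). These centred repeats and the fullest-event values were chosen after seeing the data.

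Circles ran from -0.42 to 0.11 (Cacna2d3, 29055887), -1.21 to 0.37 (Cacna1e, 154700371), -0.30 to 1.52 (Cacna2d1, ending at 16328044) and -0.078 to 0.52 (Cacna1c, 119052601), and the Cacna2d1 host sum from -0.36 to 0.021. Linear reads ran from -0.0031 to 0.20 at the Cacna1b circle and from -0.090 to 0.11 at the Cacna1a circle. Circular shares ran from -0.36 to 0.33 (Cacna2d3), -0.51 to 0.0065 (Cacna2d1) and -0.28 to 0.49 (Cacna1c).

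No paired analysis was possible because the sample titles of the 2 groups share no number; libraries are counted in the order of deposit, which only names them. At 157 to 246 circle reads per library over all 10 genes, counting error alone limits what single circles can show, and gene values rest on assembled events that can leave transcripts out.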
